A study of Mus musculus with 6 samples.

Results

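The genes described here are 34 genes of the endoplasmic reticulum (ER) stress response and of ER-associated degradation (ERAD), looked up by symbol among the 24972 gene symbols measured by RNA-Seq in endothelial cells isolated from mouse lung (iLECs). They were chosen by their known roles, but with earlier results of these data known. They hold the 3 stress sensors, 3 transcription factors, 9 chaperones of the BiP system, and 5 lectin chaperones and disulfide isomerases. Another 10 are ERAD factors and 4 are targets of ATF4. All 34 were present, and 33 of them were among the 14456 genes that reached 10 normalized counts in 3 or more libraries and were tested. *Derl3* was under that filter. The list was divided into an ATF6/XBP1 arm of 27 genes, which holds the sensors *Ern1* and *Atf6*, *Xbp1* and the ER-resident proteins, and a PERK/ATF4 arm of 7 genes, which holds *Eif2ak3*, *Atf4*, *Ddit3* and the 4 ATF4 targets.

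RNA-Seq was carried out on iLECs at P7, from 3 control and 3 *Atp6ap2* iECKO samples. The control samples are labelled *Atp6ap2* fl/Y with no Cre. The *Atp6ap2* iECKO samples are labelled *Atp6ap2* fl/Y with *Cdh5*-CreERT2, a tamoxifen-inducible Cre under the VE-cadherin promoter, which is active in endothelium. *Atp6ap2* encodes the prorenin receptor, an accessory subunit of the proton pump (V-ATPase) that acidifies lysosomes and other compartments. Pups of both groups received 100 μg tamoxifen on each of P1 to P3, and lung cells were captured with beads carrying an antibody to CD31. The control samples lack the Cre transgene as well as the deletion, so these cannot be told apart. The labels give the strain as C57BL/6, whereas the study's methods describe a mixed CD1 and C57BL/6 background, and neither says whether a sample pools animals.

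*Atp6ap2*, the deleted gene, was at 7490, 5815 and 5681 normalized counts in the control libraries and at 4220, 2336 and 1982 in the *Atp6ap2* iECKO libraries, so that 0.429 of the control level remained (adjusted *P* = 0.0306). The adjusted *P* value of *Atp6ap2* was 0.00604 without *Atp6ap2* iECKO replicate 1, and 0.0782, 0.0628, 0.0857, 0.103 and 0.0986 without control replicates 1, 2 and 3 and *Atp6ap2* iECKO replicates 2 and 3. *Xist*, the RNA expressed from the inactive X chromosome, was at 19.3 and 31.7 normalized counts in *Atp6ap2* iECKO replicate 2 and control replicate 3, and between 37704 and 47487 in the other 4 libraries, although all 6 are labelled fl/Y. The study used pups of both sexes, and its female mice are fl/fl. The label fl/Y therefore cannot be taken as the genotype of those 4 libraries. Normalized counts summed to between 26243878 and 28725799 per library. The most common low value, which would be the worth of 1 read, was 2.26 to 2.34 in control and 1.51 to 1.87 in *Atp6ap2* iECKO libraries. In the bulk libraries fewer cells of a type and less RNA per cell cannot be told apart. Of the tested markers of other cells, 13 of 15 for fibroblasts and 9 of 16 for mural cells were called lower in *Atp6ap2* iECKO libraries. A call is an adjusted *P* below 0.05 (limma), reached by 3.28% of all genes in the higher and 4.97% in the lower direction. The log2 fold change was negative for 14 fibroblast markers and positive for 1, and negative for all 16 mural markers. Summed levels were 84001 to 131521 against 29149 to 42148 for fibroblasts and 14404 to 21811 against 5954 to 7613 for mural cells. Among 19 proliferation genes 13 were called higher and all 19 had a positive log2 fold change, with sums of 25959 to 46574 against 59074 to 68277. Among 19 immediate early genes 3 were called lower, and 18 had a negative and 1 a positive log2 fold change. Their sums were 276116 to 325734 against 203178 to 246960. Summed endothelial markers (382938 to 494759 against 399808 to 465198, 1 of 18 called), epithelial markers (32975 to 83723 against 40328 to 47679, 1 of 16) and leukocyte markers (10571 to 18253 against 8844 to 23695, 0 of 16) overlapped between the groups. No marker was at 0 in all libraries, and the part of these differences in the results that follow was not tested.

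Cells sense unfolded protein in the ER through 3 membrane proteins. IRE1α (*Ern1*) splices the *Xbp1* mRNA so that it encodes an active transcription factor, ATF6 is cleaved in the Golgi to release a transcription factor, and PERK (*Eif2ak3*) phosphorylates the initiation factor eIF2α, which lowers general translation and favours translation of the *Atf4* mRNA. ATF6 and spliced XBP1 raise the transcription of chaperones and ERAD factors, whereas ATF4, which other eIF2α kinases also engage, raises genes of amino acid synthesis and transport, of the redox balance and of the later stress response. ERAD takes misfolded glycoproteins from the ER to the proteasome, and endothelial cells, which secrete large amounts of matrix and coagulation proteins, keep both systems in use. Splicing of *Xbp1*, cleavage of ATF6, phosphorylation of PERK and translation of *Atf4* are not visible in gene-level RNA counts.

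Some promoters of the members hold the letters of elements that these factors are known to bind, and the sites below are shown to tell the members that hold such an element from those that do not. RefSeq promoters of GRCm38.p6, from 250 bases before to 50 bases after the start, were available for 30 of the 34 members, the exceptions being *Atf6*, *Derl1*, *Hyou1* and *Manf*. The ER stress response element (ERSE) is CCAAT and CCACG with 9 bases between them on either strand. It was found in 9 of the 30 members (30%), against 39 of all 32851 promoters (0.119%). Members are counted here and below as genes, with a match in any promoter of the gene, and the background as single promoters. The members were chosen by known roles, which include being targets of these factors, so the shares are a description and not a test. All 9 belonged to the ATF6/XBP1 arm, namely *Calr*, *Canx*, *Creld2*, *Derl3*, *Dnajc3*, *Hsp90b1*, *Hspa5*, *Pdia6* and *Syvn1*. The most abundant chaperones hold it, *Hsp90b1* with a match on each strand. Sequences are given on the strand of the gene, with the matching letters in capitals.
*Hspa5*, chr2:34772020-34772049, + strand: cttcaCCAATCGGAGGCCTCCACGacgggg
*Hsp90b1*, chr10:86705632-86705661, - strand: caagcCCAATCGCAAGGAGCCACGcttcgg
*Canx*, chr11:50325794-50325823, - strand: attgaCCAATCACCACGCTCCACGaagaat
*Pdia6*, chr12:17266486-17266515, + strand: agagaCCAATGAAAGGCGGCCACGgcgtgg
*Calr*, chr8:84847069-84847098, - strand, with the match on the other strand: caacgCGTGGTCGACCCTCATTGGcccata

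The shorter element ERSE-II, which is ATTGG and CCACG with 1 base between them, was found in *Herpud1* and *Dnajb11*, against 12 of all promoters (0.0365%), and the XBP1-binding letters TGACGTGG (UPRE) were found in 0 of the 30 and in 222 of all promoters (0.676%). The C/EBP-ATF response element (CARE) bound by ATF4 is TGATG and AA with 1 base between them. It was found in 3 of the 7 genes of the PERK/ATF4 arm (42.9%) and in 1 of 23 of the ATF6/XBP1 arm (4.35%). Of all promoters 1304 held it (3.97%). These 4 CARE sites are shown, with an ERSE-II below them, because they include *Asns*, the member with the largest difference between genotypes, whose site lies before the RefSeq start and inside the longer GENCODE gene, and 3 members that did not pass the test. *Xbp1* and *Eif2ak3*, the other members that passed it, hold none of these letters in the window. A match in a promoter is a description of its letters, and binding was not measured.
*Asns*, chr6:7693214-7693243, - strand: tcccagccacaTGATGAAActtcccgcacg
*Trib3*, chr2:152344028-152344057, - strand, with the match on the other strand: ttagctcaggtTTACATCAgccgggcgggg
*Chac1*, chr2:119351038-119351067, + strand, with the match on the other strand: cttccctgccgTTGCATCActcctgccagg
*Herpud1*, chr8:94386306-94386335, + strand, with the match on the other strand for CARE: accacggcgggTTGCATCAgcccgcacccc
*Herpud1*, chr8:94386368-94386397, + strand, for ERSE-II: cgggcgctgATTGGGCCACGttggacactg

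In control iLECs the members ranged over more than 3 orders of magnitude. Per kilobase of the longest coding transcript, *Hspa5* was at 8174 ± 803 normalized counts (SD, n = 3), *Atf4* at 8128 ± 511 and *Calr* at 7776 ± 562, and these 3 did not differ beyond their spread. *Hsp90b1* (6393 ± 476) and *Ppp1r15a* (5881 ± 833) came next on this length-scaled level and overlapped each other, followed by *Pdia3* (4446 ± 63.1) and *Canx* (2412 ± 271). *Xbp1* was at 1952 ± 162 per kilobase, close to *Pdia6* at 1914 ± 237, and was the most abundant of these sensors and factors after *Atf4*. The sensors were low by comparison, with length-scaled levels of 404 ± 46.0 for *Atf6*, 357 ± 14.1 for *Eif2ak3* and 137 ± 16.0 for *Ern1*. *Chac1* (119 ± 37.1), *Asns* (92.0 ± 13.0) and *Trib3* (48.5 ± 18.0) were the lowest of the members tested. *Derl3*, a derlin of secretory tissues, was at 8.64, 2.89 and 2.09 normalized counts in the control libraries and at 3.29, 3.84 and 6.99 in the *Atp6ap2* iECKO libraries, overlapping between groups.

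Does loss of *Atp6ap2* from endothelial cells go with a transcriptional ER stress response? In the comparison of *Atp6ap2* iECKO with control, 2 members were called higher (*Asns* and *Eif2ak3*) and 1 was called lower (*Xbp1*), which is 9.09% of the 33 tested. Among all genes tested 8.25% passed the same threshold of an adjusted *P* below 0.05 (limma, Benjamini-Hochberg), so the share of members called was close to that of the genome. The shares of all genes that passed in the higher and in the lower direction were 3.28% and 4.97%. An unadjusted *P* below 0.05 was reached by 9 members in the higher and 2 in the lower direction, 33.3% against 23.9% of all genes (11.6% higher and 12.3% lower). The differences were small, with 31 of 33 members within 0.5 on the log2 scale, compared with 79.8% of all genes, and with a median log2 fold change of 0.04 against 0.00 for all genes. The signs were uneven, with 22 of 33 members (66.7%) above 0 compared with 50.7% of all genes. With libraries scaled to equal totals 26 members and 55.9% of all genes were above 0, and with equal upper quartiles 25 members and 52.9%. With equal totals *Canx* was called higher along with *Asns* and *Eif2ak3*, and *Xbp1* was not called. Without the mean-variance trend of limma 0 members were called, with adjusted *P* values of 0.0503 for *Asns*, 0.108 for *Xbp1* and 0.120 for *Eif2ak3*. Non-overlapping groups were seen for 15 members (45.5%) against 29.8% of all genes, with all 3 *Atp6ap2* iECKO libraries above all 3 control libraries for 12 (36.4% against 14.7%) and below them for 3 (9.09% against 15%). The plot of every member by library shows these shifts beside the spread within each group, and the plot of fold changes gives their intervals.

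**Figure D1:**
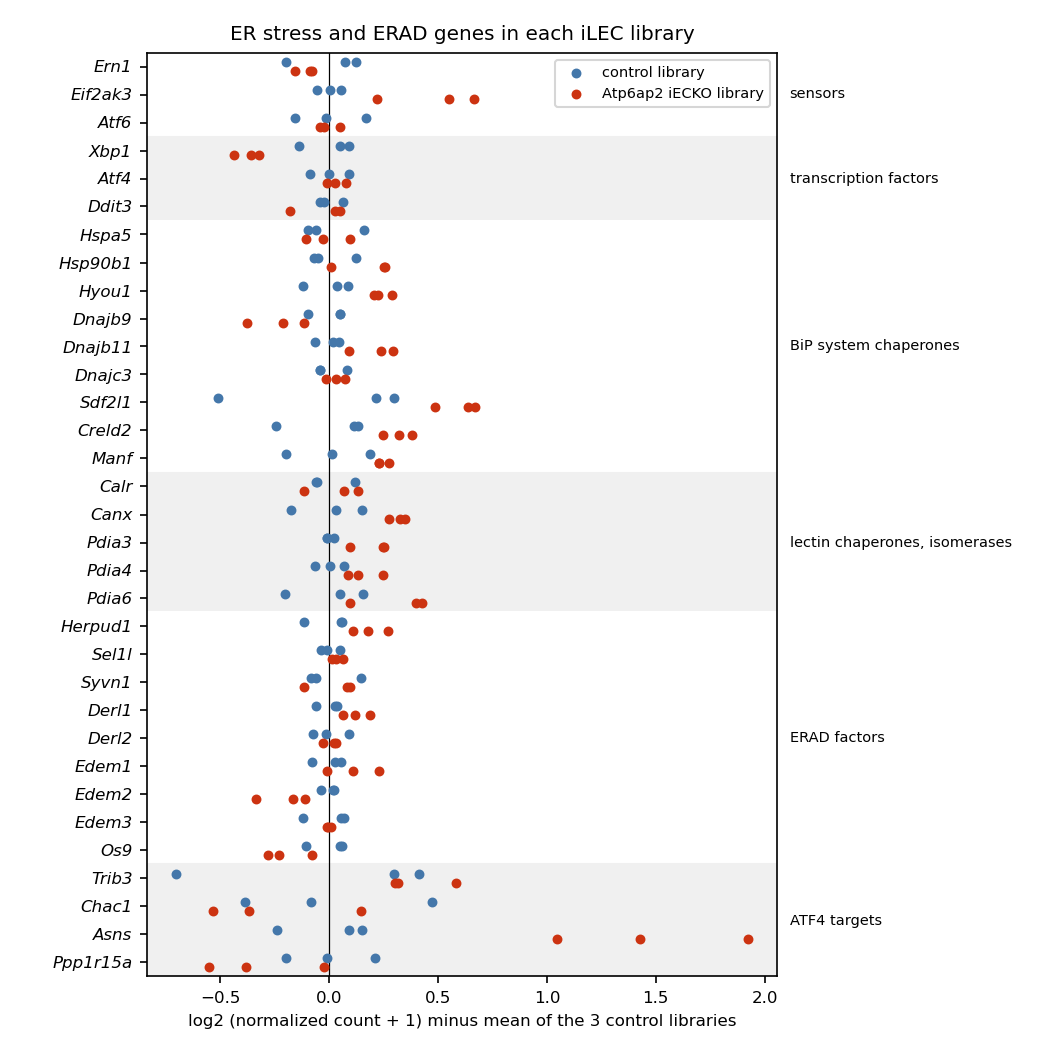
Level of the 33 tested ER stress and ERAD genes in each library, as log2(normalized count + 1) minus the mean of the 3 control libraries (x axis), with 1 row per gene grouped by role. Each point is 1 library (blue, control; red, Atp6ap2 iECKO), and the red points of Asns and Eif2ak3 lie right of all blue points, those of Xbp1 left of them, while those of Hspa5, Atf4 and Ddit3 are intermixed with the blue points.

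**Figure D2:**
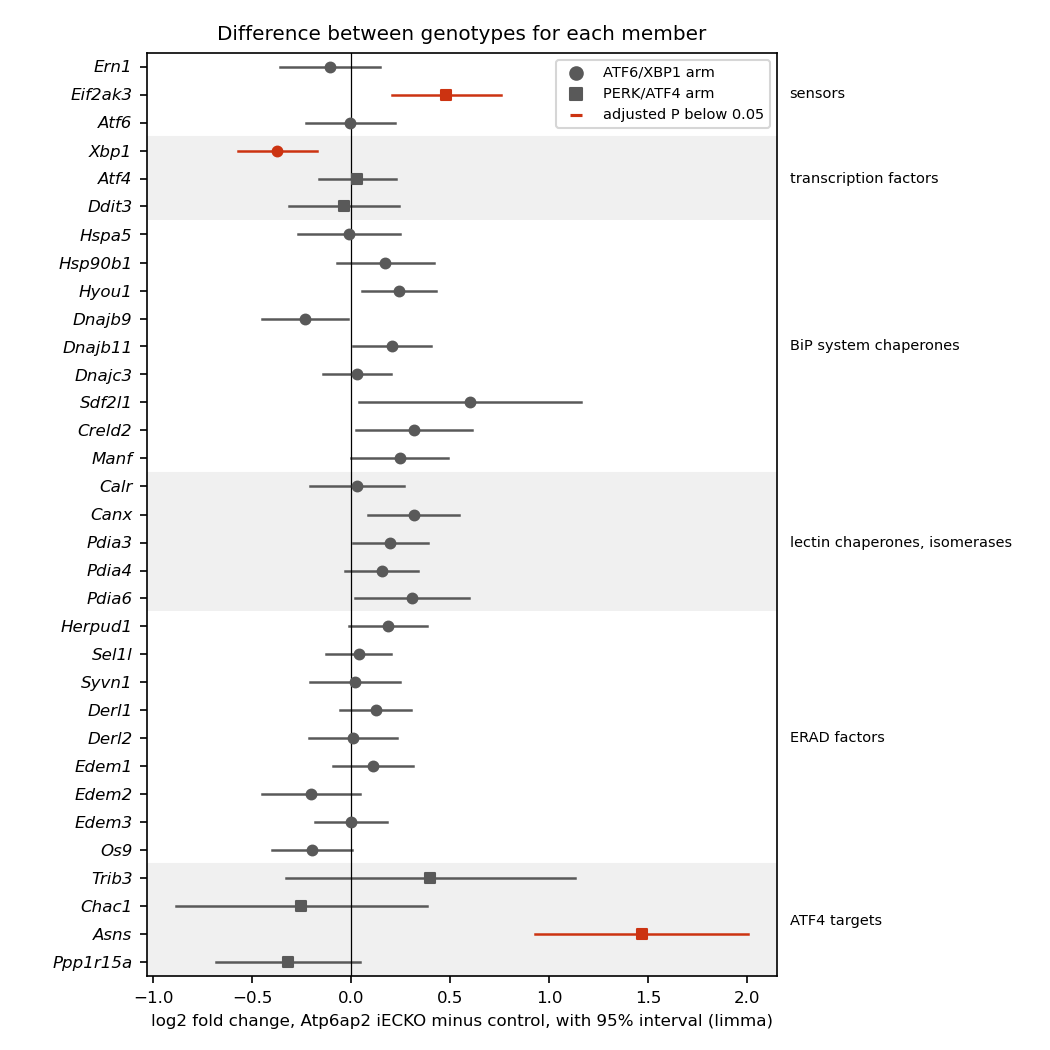
Log2 fold change of Atp6ap2 iECKO over control for the same 33 genes (x axis), with bars for the 95% interval from limma, circles for the ATF6/XBP1 arm and squares for the PERK/ATF4 arm. Only Eif2ak3, Xbp1 and Asns, in red, had an adjusted P below 0.05, and most intervals lie within 0.5 of the line at 0.

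Of the 3 sensors only *Eif2ak3*, which encodes PERK, passed the test. It was at 1547, 1615 and 1674 normalized counts in the control libraries and at 1877, 2556 and 2362 in the *Atp6ap2* iECKO libraries. Every *Atp6ap2* iECKO library was above every control library, with replicate 1 closest to the controls. *Eif2ak3*, on chromosome 6 from 70844515 to 70905245 on the plus strand (GENCODE M21, GRCm38), rose 1.39-fold, a log2 fold change of 0.48 ± 0.12 (SE, 95% interval 0.20 to 0.76, adjusted *P* = 0.0490). The call lay at the threshold. Without *Atp6ap2* iECKO replicate 1 the adjusted *P* value was 0.0155, and without control replicates 1, 2 and 3 and *Atp6ap2* iECKO replicates 2 and 3 it was 0.107, 0.108, 0.112, 0.162 and 0.169, with log2 fold changes of 0.39 to 0.61 over the 6 fits. With *Xist* as a covariate it was 0.0558.

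The other sensors differed by less than their spread. *Ern1*, the gene for IRE1α, was at 1033, 998.2 and 826 normalized counts in control and at 850.3, 890.3 and 896 in *Atp6ap2* iECKO libraries, which overlapped (log2 fold change -0.11, 95% interval -0.36 to 0.14, adjusted *P* = 0.601). *Atf6* was at 3279, 2888 and 2616 in control and at 2831, 2870 and 3017 in *Atp6ap2* iECKO libraries (log2 fold change 0.00, 95% interval -0.23 to 0.22, adjusted *P* = 0.983). Its *Atp6ap2* iECKO values lay inside the range of the control values.

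Among the transcription factors, *Xbp1* fell. Its normalized counts were 4411, 3764 and 4293 in the control libraries, and 3232, 3315 and 3058 in the *Atp6ap2* iECKO libraries. The *Atp6ap2* iECKO values lay close together and below the lowest control value. *Xbp1* lies on chromosome 11 from 5520659 to 5525893 on the plus strand, and its level fell to 0.772 of the control level, a log2 fold change of -0.37 ± 0.09 (SE, 95% interval -0.57 to -0.17, adjusted *P* = 0.0396). The adjusted *P* value was 0.0324 without control replicate 2, but 0.0802, 0.116, 0.0766, 0.111 and 0.149 without control replicates 1 and 3 and *Atp6ap2* iECKO replicates 1, 2 and 3, with log2 fold changes of -0.44 to -0.33. It was 0.0658 with *Xist* as a covariate and 0.0538 with libraries scaled to equal totals.

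The factors of the PERK branch showed no such difference. *Atf4* was at 13986, 14918 and 13157 normalized counts in control and at 14277, 14751 and 13883 in *Atp6ap2* iECKO libraries, all within the control range (log2 fold change 0.03, 95% interval -0.17 to 0.23, adjusted *P* = 0.869). *Ddit3*, which encodes the pro-apoptotic factor CHOP, was at 418, 444.3 and 412.8 in control and at 439.2, 432 and 375.3 in *Atp6ap2* iECKO libraries (log2 fold change -0.04, 95% interval -0.31 to 0.24, adjusted *P* = 0.894). The lowest value of *Ddit3* was that of *Atp6ap2* iECKO replicate 3, and the other 2 lay within the control range. The annotation holds a second overlapping gene model named *Ddit3*, and how reads were divided between the models is not given in the sources used here.

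**Figure D3:**
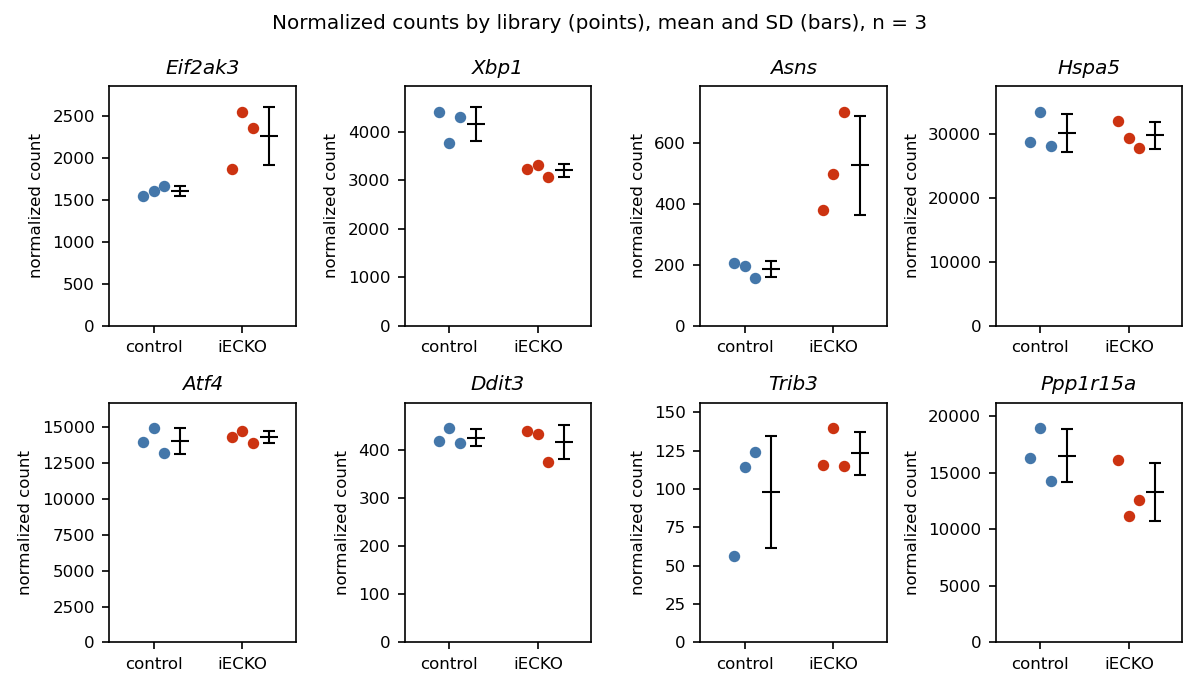
Normalized counts (y axis, from 0) of 8 members in the 3 control (blue) and 3 Atp6ap2 iECKO (red) libraries, with points for libraries and bars for the mean and SD. The groups are separate for Eif2ak3, Xbp1 and Asns and overlap for Hspa5, Atf4, Ddit3, Trib3 and Ppp1r15a.

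No chaperone of the BiP system passed the test, although 7 of 9 had a log2 fold change above 0 and the median of the 9 was 0.21. At an unadjusted *P* below 0.05 in limma 4 of them were higher and 1 lower, where 11.6% and 12.3% of all genes were. *Hspa5*, the gene for BiP and a widely used readout of ER stress, was at 28651, 33402 and 27997 normalized counts in control and at 31970, 29311 and 27814 in *Atp6ap2* iECKO libraries. The values were intermixed, and the log2 fold change was -0.01 ± 0.11 (SE, 95% interval -0.27 to 0.25, adjusted *P* = 0.959). Control replicate 2 held the highest value and *Atp6ap2* iECKO replicate 3 the lowest.

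*Sdf2l1*, a partner of BiP that slows the aggregation of client proteins, had the largest log2 fold change among the chaperones (0.60 ± 0.24, 95% interval 0.04 to 1.16, adjusted *P* = 0.182). It was at 93.4, 155.4 and 164.4 normalized counts in control and at 208.1, 187.6 and 213.4 in *Atp6ap2* iECKO libraries. All *Atp6ap2* iECKO values were higher, and control replicate 1 stood well below the other controls, with a log2 fold change of 0.34 without it. *Creld2*, a disulfide isomerase-like protein secreted in ER stress, was at 489.7, 634.3 and 626.7 in control and at 723.2, 755 and 688.6 in *Atp6ap2* iECKO libraries (log2 fold change 0.32 ± 0.13, adjusted *P* = 0.181). Its groups did not overlap either, and control replicate 1 was again the lowest.

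The other 6 chaperones ranged in log2 fold change from -0.23 to 0.24. *Hyou1*, a nucleotide exchange factor of BiP, was at 3046, 3515 and 3394 normalized counts in control and at 3870, 4047 and 3818 in *Atp6ap2* iECKO libraries (log2 fold change 0.24, adjusted *P* = 0.121). *Manf*, a secreted regulator of BiP with a log2 fold change of 0.24, and the cochaperone *Dnajb11*, with 0.21, also had non-overlapping groups with higher values in *Atp6ap2* iECKO (adjusted *P* = 0.211 and 0.187). *Dnajb9*, a cochaperone that is a target of spliced XBP1, had them in the opposite direction. It was at 2957, 2956 and 2666 normalized counts in control and at 2638, 2466 and 2201 in *Atp6ap2* iECKO libraries (log2 fold change -0.23, adjusted *P* = 0.173). *Hsp90b1*, the ER form of HSP90, and the cochaperone *Dnajc3* overlapped between groups (log2 fold changes 0.17 and 0.03, adjusted *P* = 0.383 and 0.864).

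The lectin chaperones and disulfide isomerases all had positive log2 fold changes, from 0.03 to 0.32, and none of the 5 passed the test. At an unadjusted *P* below 0.05 in limma 3 of them were higher and 0 lower, where 11.6% and 12.3% of all genes were. *Canx*, the membrane-bound lectin calnexin, was at 11396, 10490 and 9093 normalized counts in control and at 12862, 13100 and 12425 in *Atp6ap2* iECKO libraries. Its groups did not overlap (log2 fold change 0.32 ± 0.10, 95% interval 0.08 to 0.55, adjusted *P* = 0.0991), and the adjusted *P* value was 0.0299 with libraries scaled to equal totals. *Pdia6*, an isomerase that also restrains IRE1α, was at 3600, 4279 and 4609 in control and at 4423, 5556 and 5462 in *Atp6ap2* iECKO libraries (log2 fold change 0.31 ± 0.12, adjusted *P* = 0.184). *Atp6ap2* iECKO replicate 1 of *Pdia6* lay among the controls. The isomerases *Pdia3* and *Pdia4*, which act on glycoproteins and on secreted proteins, did not overlap between the groups either, with log2 fold changes of 0.20 and 0.15 and adjusted *P* values of 0.195 and 0.292. *Calr*, the soluble lectin calreticulin, overlapped, with a log2 fold change of 0.03 (95% interval, -0.21 to 0.26; adjusted *P* = 0.900).

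Among the ERAD factors 0 of the 9 tested passed the test, and the median log2 fold change was 0.02. At an unadjusted *P* below 0.05 in limma 0 of them were higher and 0 lower, where 11.6% and 12.3% of all genes were. *Edem2*, a mannosidase that starts the trimming of glycoproteins for degradation, was at 599.4, 623.9 and 621.1 normalized counts in control and at 569.1, 486.7 and 548 in *Atp6ap2* iECKO libraries. Its values were lower in every *Atp6ap2* iECKO library (log2 fold change -0.20 ± 0.11, 95% interval -0.45 to 0.04, adjusted *P* = 0.296). *Os9*, the lectin that delivers trimmed glycoproteins to the ubiquitin ligase, was at 3199, 2852 and 3180 in control and at 2905, 2616 and 2527 in *Atp6ap2* iECKO libraries (log2 fold change -0.20 ± 0.09, adjusted *P* = 0.220). *Atp6ap2* iECKO replicate 1 of *Os9* was above the lowest control, so the groups overlapped. *Herpud1*, a scaffold of the ligase complex, was at 2725, 3070 and 3079 in control and at 3183, 3344 and 3559 in *Atp6ap2* iECKO libraries, higher without overlap (log2 fold change 0.19, adjusted *P* = 0.234). *Derl1*, a channel component, was higher without overlap as well (log2 fold change 0.12, adjusted *P* = 0.390). The ubiquitin ligase *Syvn1*, its partner *Sel1l*, *Derl2*, *Edem1* and *Edem3* had log2 fold changes of 0.02, 0.04, 0.01, 0.11 and 0.00, with adjusted *P* values from 0.501 to 0.990.

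Of the 4 ATF4 targets 1 passed the test (25%, against 8.25% of all genes). *Asns*, which encodes asparagine synthetase, was at 204.8, 196.2 and 155.6 normalized counts in control and at 381.4, 496.7 and 702.6 in *Atp6ap2* iECKO libraries. The lowest *Atp6ap2* iECKO value was well above the highest control value, and the *Atp6ap2* iECKO libraries were spread more widely than the controls. *Asns*, on chromosome 6 from 7675169 to 7693254 on the minus strand, rose 2.76-fold, a log2 fold change of 1.47 ± 0.23 (SE, 95% interval 0.93 to 2.00, adjusted *P* = 0.0138). Leaving out each library gave log2 fold changes of 1.24 to 1.68, and the call was lost when control replicate 3 was left out (adjusted *P* = 0.0546), and without *Atp6ap2* iECKO replicate 2 (0.0510). With *Xist* as a covariate it was 0.0219.

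The other 3 targets are those tied to the late, pro-apoptotic stress response. *Trib3*, a pseudokinase that restrains AKT and ATF4, was at 56.6, 114.3 and 123.9 normalized counts in control and at 115.9, 139.6 and 114.7 in *Atp6ap2* iECKO libraries (log2 fold change 0.40, 95% interval -0.33 to 1.13, adjusted *P* = 0.501). Control replicate 1 was the only value apart from the rest, and the log2 fold change of *Trib3* was 0.05 without it. *Chac1*, an enzyme that degrades glutathione, was at 261.7, 177.8 and 143.7 in control and at 208.3, 145.9 and 129.7 in *Atp6ap2* iECKO libraries (log2 fold change -0.25, 95% interval -0.89 to 0.38, adjusted *P* = 0.635). Its highest value was also that of control replicate 1, without which its log2 fold change was -0.02. *Ppp1r15a*, which encodes GADD34, the phosphatase subunit that reverses eIF2α phosphorylation, was at 16304, 18959 and 14293 in control and at 16156, 11193 and 12578 in *Atp6ap2* iECKO libraries (log2 fold change -0.32, 95% interval -0.68 to 0.04, adjusted *P* = 0.267). The groups of all 3 overlapped, and the intervals of *Trib3* and *Chac1*, the least abundant of them, were the widest.

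Between the arms, the ATF6/XBP1 arm had 1 of 26 tested genes called (3.85%, against 8.25% of all genes), *Xbp1* itself, and a median log2 fold change of 0.07. The median of its log2 ratios to the mean control level was -0.04, 0.05 and 0.00 in the control libraries. It was 0.09, 0.09 and 0.06 in the *Atp6ap2* iECKO libraries, each above the controls. The margin was narrow, with 0.0553 in *Atp6ap2* iECKO replicate 3 against 0.0501 in control replicate 2. The median log2 fold change of all genes was 0.0049. In this arm 18 genes had a positive and 8 a negative fold change, where 50.7% of all genes were positive. Non-overlapping groups were found for 13 (50%, against 29.8% of all genes), 10 of them higher (38.5%, against 14.7%) and 3 lower (11.5%, against 15%). The PERK/ATF4 arm had 2 of 7 genes called (28.6%, against the same 8.25%) and a median log2 fold change of 0.03. Its median log2 ratio was -0.01, 0.09 and -0.09 in control and 0.14, 0.08 and -0.01 in *Atp6ap2* iECKO libraries, which overlapped. In the PERK/ATF4 arm 4 genes had a positive and 3 a negative fold change. Groups did not overlap for 2 of its genes (28.6%, against 29.8% of all genes), both higher (against 14.7%). The difference between the arms was not tested. The 8 tested members with an ERSE had log2 fold changes from -0.01 to 0.32, and the 4 with a CARE had values of 1.47 (*Asns*), 0.40 (*Trib3*), 0.19 (*Herpud1*) and -0.25 (*Chac1*), of which those of *Trib3* and *Chac1* were 0.05 and -0.02 without control replicate 1.

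Further genes of the same pathways were listed by role, with earlier results of these data known. Of 22 further ER folding enzymes and chaperones 0 passed the test in either direction, with a median log2 fold change of 0.12. At an unadjusted *P* below 0.05 in limma 5 were higher and 1 lower, where 11.6% and 12.3% of all genes were. Of 23 further ERAD factors 0 passed, with 3 higher and 1 lower at an unadjusted *P* below 0.05 and a median of 0.03. The translocation channel and the signal peptidase, which bring new proteins into the ER, had 2 of 19 genes called, both higher, and a median of 0.19. This share of 10.5% was close to the 8.25% of all genes. The channel subunit *Sec61a1* was at 5713, 5604 and 5629 normalized counts in control and at 6800, 7010 and 7108 in *Atp6ap2* iECKO libraries, tight within each group (log2 fold change 0.30 ± 0.07, adjusted *P* = 0.0376). The signal peptidase subunit *Spcs3* was at 1683, 1541 and 1498 in control and at 2055, 2104 and 2035 in *Atp6ap2* iECKO libraries (log2 fold change 0.39 ± 0.08, adjusted *P* = 0.0271). With *Xist* as a covariate these adjusted *P* values were 0.0797 and 0.0519. *Sec61a1* missed the threshold on leaving out any of the 6 libraries (adjusted *P* from 0.0527 without control replicate 1 to 0.147 without *Atp6ap2* iECKO replicate 2). *Spcs3* missed it without any but control replicate 1 (0.0548 without *Atp6ap2* iECKO replicate 1 to 0.111 without replicate 2).

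Of 15 further sensors and processing factors tested, 1 was called higher and 1 called lower (13.3%, against 8.25% of all genes). By sign, 12 had a positive and 3 a negative log2 fold change. *Eif2s1*, which encodes eIF2α, the substrate of PERK, was at 1639, 1738 and 1468 normalized counts in control and at 1978, 2472 and 2251 in *Atp6ap2* iECKO libraries (log2 fold change 0.47 ± 0.11, adjusted *P* = 0.0402). *Creb3l1*, an ER-tethered transcription factor related to ATF6 that acts on collagen genes, fell from 638.1, 872.5 and 628.8 in control to 407.8, 319.8 and 271.7 in *Atp6ap2* iECKO libraries (log2 fold change -1.10 ± 0.19, adjusted *P* = 0.0175). Neither gene overlapped between groups, and the summed fibroblast markers, which include 3 collagen genes, were lower in the same libraries as *Creb3l1*. *Eif2s1* kept its call only without *Atp6ap2* iECKO replicate 1, with adjusted *P* values of 0.0556 to 0.142 without the other libraries in turn, and it was 0.0676 with *Xist* as a covariate. *Creb3l1* lost its call without control replicate 3 (0.0511) and *Atp6ap2* iECKO replicates 2 (0.0639) and 3 (0.0644). *Ern2*, the epithelial form of IRE1, was at 0 in all 6 libraries.

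Of 25 further ATF4 targets tested, 6 were called higher and 3 called lower (36%, against 8.25% of all genes), with a median log2 fold change of 0.02. The list was drawn up with earlier results of these data known, so this share is a description and not a test. *Psat1*, the phosphoserine aminotransferase, was at 395.3, 518 and 413.2 normalized counts in control and at 1047, 1187 and 1342 in *Atp6ap2* iECKO libraries (log2 fold change 1.43 ± 0.14, adjusted *P* = 0.00703). *Mthfd2*, a mitochondrial folate enzyme, was at 191.4, 242.5 and 223.3 in control and at 496.4, 564.6 and 668.3 in *Atp6ap2* iECKO libraries (log2 fold change 1.39 ± 0.16, adjusted *P* = 0.00831). Both exceeded 2-fold in every *Atp6ap2* iECKO library over the mean of the controls, and both kept their call on leaving out any library. *Phgdh*, the first enzyme of serine synthesis, was at 170.6, 135.7 and 169.9 in control and at 313.6, 271.2 and 431.4 in *Atp6ap2* iECKO libraries (log2 fold change 1.07 ± 0.21, adjusted *P* = 0.0249). *Gdf15*, a secreted stress hormone, was at 292.3, 392.4 and 215.3 in control and at 674.8, 739.4 and 682.6 in *Atp6ap2* iECKO libraries (log2 fold change 1.26 ± 0.21, adjusted *P* = 0.0146). All 4 had separate groups, as did *Asns*. *Phgdh* lost its call without control replicates 2 and 3 and *Atp6ap2* iECKO replicate 3 (0.0592, 0.0696 and 0.0893), and *Gdf15* without *Atp6ap2* iECKO replicates 2 and 3 (0.0589 and 0.0596).

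The 5 other genes called on that list, and the uncalled ones described with them, were named after their values were seen. *Slc7a1*, a transporter of cationic amino acids, and *Shmt2*, a mitochondrial serine hydroxymethyltransferase, were higher, by 0.92 ± 0.16 and 0.62 ± 0.10 on the log2 scale (adjusted *P* values, 0.0180 and 0.0133). *Cebpb*, a transcription factor that pairs with ATF4, was lower, at 1143, 1558 and 1474 normalized counts in control and at 711.2, 561.6 and 802.3 in *Atp6ap2* iECKO libraries (log2 fold change -1.01 ± 0.17, adjusted *P* = 0.0145). *Slc3a2*, the heavy chain shared by several amino acid transporters, and the lipoprotein receptor *Vldlr* were lower as well, at -0.55 ± 0.10 and -0.44 ± 0.11 on the log2 scale (adjusted *P* values, 0.0183 and 0.0461). The transporter genes *Slc7a1* and *Slc3a2* thus differed in opposite directions. *Psph*, the phosphatase that completes serine synthesis after *Phgdh* and *Psat1*, did not pass the test (log2 fold change 0.25, 95% interval -0.14 to 0.64, adjusted *P* = 0.423). *Slc7a5* and *Slc7a11*, light chains that pair with *Slc3a2*, were at 1.01 and 0.96 on the log2 scale and did not pass the test (adjusted *P* values, 0.0634 and 0.0735). The calls of *Slc7a1* and *Slc3a2* were lost without control replicate 3 (both 0.0591) and without *Atp6ap2* iECKO replicates 2 (0.0684 and 0.0723) and 3 (0.0740 and 0.0746). That of *Shmt2* was lost without *Atp6ap2* iECKO replicates 2 (0.0573) and 3 (0.0620) and that of *Cebpb* without control replicate 3 (0.0615). *Vldlr* kept its call only without control replicate 1, with adjusted *P* values of 0.0877 to 0.152 otherwise. In the same libraries 13 of 19 proliferation genes were called higher and 3 of 19 immediate early genes lower, against 3.28% and 4.97% of all genes. The part of those genes in these differences was not tested. CARE letters were found in 7 of the 23 further ATF4 targets with a promoter available (30.4%).

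**Figure D4:**
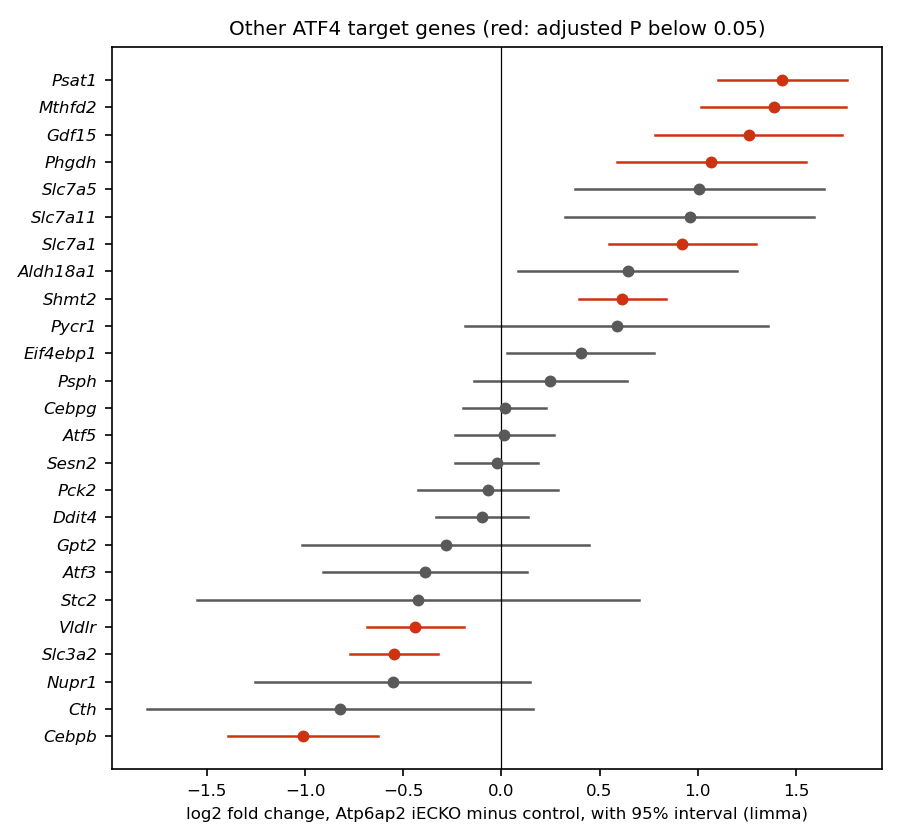
Log2 fold change of Atp6ap2 iECKO over control (x axis) for the 25 further ATF4 target genes tested, ordered by fold change, with bars for the 95% interval from limma and red for an adjusted P below 0.05. Psat1, Mthfd2, Gdf15 and Phgdh head the list and Cebpb closes it at -1.01, with the points spread on both sides of 0.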

How the data were processed

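RNA-Seq libraries (TruSeq RNA, unstranded) were made from iLECs of 3 control and 3 *Atp6ap2* iECKO samples and sequenced by the authors, who aligned the reads to mm10 and quantified genes with the BaseSpace RNA-Seq tools. The deposited values are a normalized signal per gene symbol. They are called raw counts in the labels, but they are fractional, and the ratio to the gene-wise geometric mean has a median of 1.00 in each library, so depth had been divided out and reads could not be recovered. The count test foreseen was therefore replaced, and no counting interval can be given.

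The log2 of the normalized count plus 1 was compared between genotypes with limma (version 3.58.1, R version 4.3.3) using all 6 libraries, a mean-variance trend and no covariate, over the 14456 genes with a value of at least 10 in at least 3 libraries. *P* values were two-sided and adjusted by the Benjamini-Hochberg method over all genes tested, with a threshold of 0.05. Fold changes on this scale understate those of low genes. The procedure was also run on simulated data, with independent noise whose spread was shared by genes of like level. That run checked the recovery of seeded changes. It cannot show how well the calls reported here are calibrated, because real genes of like level differ in spread. Single values of 3 against 3 libraries cannot reach an exact permutation *P* below 0.1. The *P* values measure the spread between these samples, which the study calls biological replicates.

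The 34 members, their arms and the further lists were chosen with earlier results of these data known. Values in every library are given for sensors, transcription factors, *Hspa5*, members that passed the test, members without overlap and a log2 fold change of at least 0.5 in size, and the 2 members per role with the largest fold change, and from each further list for called genes, at most 4 by fold change. Some other members are given because their groups did not overlap, and some further ATF4 targets were added after their values were seen. Coordinates are those of GENCODE M21 (GRCm38), and promoters those of RefSeq (GRCm38.p6), matched by symbol. Alternatives were other scalings, filters, pseudocounts, no trend, *Xist* (above or below 1000) as a covariate, the replicate number as a block, and leaving out each library.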

Additional observations from a re-analysis of the deposited data

How the results depend on the processing

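Scaling to equal upper quartiles, pseudocounts of 0.5 and 5 and a filter of 50 gave the same calls of *Eif2ak3*, *Xbp1* and *Asns* as the values reported. The number of members called higher, 2 as reported, was 1 without a filter, 1 with *Xist* as a covariate, 0 without a mean-variance trend and 0 to 2 on leaving out each library. The number called lower, 1 as reported, was 0 with equal library totals, with *Xist* as a covariate and without the trend, and 0 to 1 on leaving out each library. Over all genes, 1193 calls became 304 without the trend, 767 with *Xist* as a covariate, and 206 to 983 on leaving out each library. The median log2 fold change of the ATF6/XBP1 arm, 0.07 as reported, was 0.11 with equal library totals, which moved the median of all genes alike from 0.0049 to 0.0452, and 0.11 without a filter, which added *Derl3*. *Atp6ap2* kept its log2 fold change of -1.22 without the trend (adjusted *P* = 0.0917, limma) and ranged from -1.54 to -0.999 on leaving out each library. Among the further ATF4 targets, 3 were called higher and 0 lower without the trend, against 2 to 7 and 0 to 3 on leaving out each library. The cause of the other changes was not tested.

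Members near 0 changed sign. Scaling shifts every gene alike, and the median of all genes was 0.0452 with equal library totals and 0.0229 with equal upper quartiles. With equal library totals the log2 fold changes were 0.035 for *Atf6*, 0.0049 for *Ddit3*, 0.027 for *Hspa5* and 0.038 for *Edem3*, and with equal upper quartiles 0.013 for *Atf6*, 0.0048 for *Hspa5* and 0.016 for *Edem3*. On leaving out each library the ranges were -0.083 to 0.0798 for *Atf6*, -0.015 to 0.076 for *Atf4*, -0.077 to 0.036 for *Ddit3*, -0.068 to 0.066 for *Hspa5*, -0.024 to 0.10 for *Calr*, -0.023 to 0.091 for *Syvn1*, -0.0297 to 0.0515 for *Derl2* and -0.062 to 0.031 for *Edem3*.

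Deviations of same-numbered libraries from their group means correlated by 0.25, 0.11 and 0.08, and those of differently numbered libraries by -0.21 to 0.10. These values do not settle whether the numbers pair the samples, and the main comparison used no pairing. With the replicate number as a block, 1508 genes and 4 members were called, *Pdia6* (adjusted *P* = 0.0463) besides *Eif2ak3* (0.0302), *Xbp1* (0.0453) and *Asns* (0.0175).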
